A study of Homo sapiens with 6 samples.

Results

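The NRF2 pathway was followed here through 9 of the 22989 genes in the count table. They are the transcription factor itself (Nfe2l2), its repressor (Keap1) and 7 of its well known targets: Nqo1, Hmox1, Gclc, Gclm, Gsr, Srxn1 and Slc7a11. They were chosen by name with earlier results of these data known, so their counts set beside all genes are a description. All 9 passed the filter on low counts that left 13497 genes for testing. By the labels, RNA was sequenced from human breast cancer stem cells (BCSC), the fraction of paclitaxel-resistant MDA-MB-231 cells sorted for high aldehyde dehydrogenase activity. The MDA-MB-231 line is human and comes from a triple-negative breast tumour. The 3 KD libraries carry a LINC00115 knockdown, made with a short hairpin RNA in the methods of the study, and the 3 WT libraries are the controls. Both groups are labelled as resistant stem cells, and the numbers on the KD libraries are replicate numbers, which the labels do not tie to different hairpins. The study's figure of its RNA sequencing names a single LINC00115 hairpin. An effect of that hairpin apart from LINC00115 therefore cannot be told apart from the knockdown. Whether the WT cells carried a control hairpin is not given in the labels. Nothing in the sources states that the 3 libraries of a group came from separate cultures, so every p-value here measures the spread between these libraries, which may be technical.

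The libraries held from 36979221 to 38799331 counts. Some facts of the table bear on every value below. LINC00115 is the name of 0 rows, so the knockdown was not checked and each direction rests on the labels. The symbols are in mouse style although the labels name a human line. They include 4648 symbols of the form Gm with a number and 1129 that end in Rik, and 915 and 473 of these passed the filter. Names of these forms belong to mouse genes, so the rows are those of a mouse annotation, and the values below cannot be taken as those of human genes. Which organism the reads came from was not tested. Among the genes listed for the labelled cells, Vim had at least 126885 counts in every library and Krt8 at least 17687. Epcam had 0 to 5 counts and Aldh1a3, an aldehyde dehydrogenase, had 0 to 4. The other aldehyde dehydrogenase on the list, Aldh1a1, had 8 to 17 counts in WT and 39 to 52 in KD. Of 8 lung markers all 8 had KD values above the highest WT value (against 37.8% of all genes tested). Their summed level was 1.57 to 1.88 CPM (counts scaled to library size) in WT and 73.3 to 84.3 in KD. The airway secretory gene Scgb1a1 had 0 counts in all 3 WT libraries and 1516, 1586 and 1843 in KD. Of 8 kidney markers 7 were higher in every KD library (against 37.8%) and 1 was lower (against 37.8%). Their summed levels were 15.7 to 18.4 CPM in WT and 42.8 to 46.3 in KD. Most of the WT sum came from Cubn (mean 8.28 CPM in WT, 6.07 in KD) and Aqp1 (8.21 and 16.4). Kap, Umod, Acsm2 and Miox had 0 counts in all 3 WT libraries, and Kap had 466, 311 and 410 in KD. Of 10 leukocyte markers 4 were higher in every KD library (against 37.8% of all genes tested) and 1 was lower (against 37.8%). Their summed level was 71.9 to 86.0 CPM in WT and 144 to 160 in KD. Most of that rise was in S100a8, with a mean of 33.0 CPM in WT and 95.2 in KD. The groups overlapped for Ptprc, Cd68, Itgam and Adgre1. Cd3e was at 0 in all 6 libraries, and Csf1r, the 1 that was lower, was at 3 counts or fewer. Of 8 fibroblast and endothelial markers 2 were higher in every KD library (against 37.8%) and 3 were lower (against 37.8%). Kdr, 1 of the 2 that were higher, had only 0, 0 and 1 counts in WT and 2, 10 and 2 in KD. The summed level of the 8 was 175 to 194 CPM in WT and 134 to 137 in KD. This sum hides opposite moves. Pdgfra fell from a mean of 177 to 74.5 CPM, while the endothelial gene Cdh5 rose from 0.221 to 57.8 CPM. A list of 11 genes for the labelled line summed to 4923 to 4976 CPM in WT and 5549 to 5685 in KD. Of the 11, 7 were higher in every KD library (against 37.8% of all genes tested) and 0 were lower (against 37.8%). The list includes Esr1, Pgr and Erbb2, the receptor genes by which a tumour is called triple-negative. Vim, Krt8, Krt18 and Aldh1a1 were among the 7, and so were Esr1 (mean 0.698 CPM in WT, 2.56 in KD), Erbb2 (17.0 and 27.6) and Cdh1 (0.0530 and 0.734). Pgr was at 3 counts or fewer in every library. These levels moved with the groups beside every result below, and their part in the results was not tested.

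NRF2 is a transcription factor that answers oxidants and reactive electrophiles. In resting cells KEAP1 binds it and hands it to the CUL3 ubiquitin ligase for destruction, and modified cysteines on KEAP1 let NRF2 escape. NRF2 then pairs with a small MAF protein at the antioxidant response element in the promoters of its targets, while BACH1 competes for the same sites. Its targets build glutathione, reduce peroxides and disulfides, supply NADPH, break down heme and conjugate or export foreign compounds. NRF2 is controlled mainly through the stability of its protein, which RNA counts do not measure.

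The core of the antioxidant response element, TGACNNNGC, was searched on both strands of the RefSeq promoters (build GRCh38.p14), windows of 300 bases that end 50 bases after a transcript start. Symbols were matched to human ones without regard to case, and the sequences are therefore of the human genes, whereas the table uses mouse-style symbols. An entry was found for 6 of the 9 genes: NFE2L2, KEAP1, NQO1, GCLC, GCLM and SRXN1. HMOX1, SLC7A11 and GSR had none. The motif was in 2 of the 6 (33.3%), against 4384 of the 27305 genes with an entry (16.1%). It was in 16 of 32 (50%) of the other NRF2 targets listed further on and in 2 of 17 (11.8%) of the regulators. The 120 bases before the start are printed for GCLM and GCLC, the subunits of 1 enzyme whose RNA moved by unequal amounts, and for KEAP1, the repressor. Capitals mark each match, which reads GCNNNGTCA where it lies on the opposite strand:
GCLM, chr1:93909431-93909550, minus strand: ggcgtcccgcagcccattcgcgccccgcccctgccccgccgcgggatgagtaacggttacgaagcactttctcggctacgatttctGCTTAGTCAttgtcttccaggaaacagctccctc
GCLC, chr6:53545102-53545221, minus strand: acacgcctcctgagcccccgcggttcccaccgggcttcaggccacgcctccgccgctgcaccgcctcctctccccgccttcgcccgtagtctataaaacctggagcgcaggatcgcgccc
KEAP1, chr19:10502772-10502891, minus strand: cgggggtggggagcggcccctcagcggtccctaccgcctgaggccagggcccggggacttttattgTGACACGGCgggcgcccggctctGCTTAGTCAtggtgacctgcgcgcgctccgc
The GCLM window held 1 match and the printed KEAP1 window held 2, while the other RefSeq promoter of KEAP1 held 0. The windows of SRXN1, NQO1 and NFE2L2 held no match, although the RNA of Srxn1 rose about as much as that of Gclm. Letters that match are a description of the window, and the GCLC window only lacks them within these bases. Whether a match goes with a change in RNA was not tested.

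Most of the NRF2 targets among the 9 genes were higher in the KD libraries, led by the cystine importer Slc7a11. The RNA of NRF2 itself was lower and that of KEAP1 was higher. The further NRF2 targets given below split more evenly. By edgeR's quasi-likelihood test with a threshold of 0.05 on the adjusted p, 7 of the 9 genes were higher, Nfe2l2 was lower and Nqo1 did not pass. Of all genes tested, 36.7% were higher and 36.7% lower by the same rule. Slc7a11, Srxn1 and Gclm also changed more than 2-fold, and these 3 are the genes called higher, against 10.2% of all genes. None was called lower by edgeR with the fold threshold, against 9.98% of all genes. At an unadjusted p under 0.05 without it 1 was lower, and DESeq2 called 0 lower. The median log2 fold change (KD over WT) was 0.93 over the 9 genes and −0.0061 over all genes tested. All 3 KD libraries lay above all 3 WT libraries for 7 of the 9 genes and below them for 1, and each of those patterns held for 37.8% of all genes tested. Of the 13497 genes tested, 3585 did not pass the adjusted p. In bulk RNA, fewer cells of a type and less RNA per cell cannot be told apart.

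**Figure D1:**
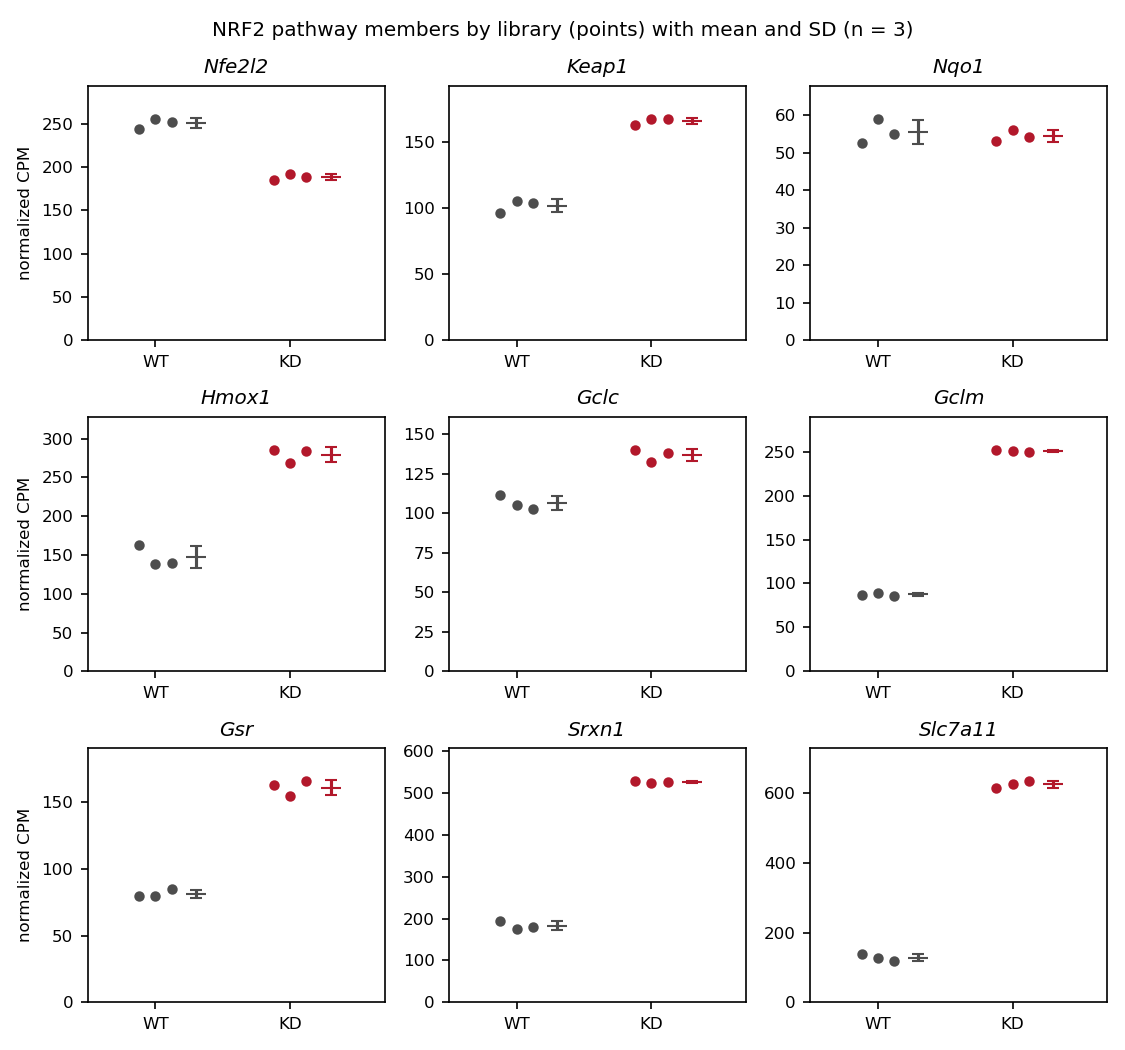
Normalized CPM of the 9 NRF2 pathway genes in each library, with 1 panel per gene, WT and KD on the horizontal axis, a point per library and the mean with its SD as bar. Slc7a11 stands between 119 and 138 CPM in WT and between 615 and 634 in KD, Nfe2l2 is lower in KD, and the groups of Nqo1 overlap.

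Nfe2l2, which encodes NRF2, stood at 244, 255 and 252 normalized CPM in the WT libraries and at 185, 192 and 189 in the KD libraries. All KD values were below all WT values. The mean went from 251 ± 5.76 (SD, n = 3) to 189 ± 3.81 CPM, which is 24.7% lower, with a log2 fold change of −0.41 (SE 0.036, adjusted p = 2.39e-12). Keap1, its repressor, went the other way. It stood at 96.3, 106 and 104 CPM in WT and at 163, 167 and 167 in KD. The groups were well apart, with means of 102 ± 4.93 and 166 ± 2.51 CPM, a 1.63-fold rise (log2 0.70, SE 0.042, adjusted p = 7.35e-17). Within a library, the ratio of Keap1 counts to Nfe2l2 counts does not depend on how libraries are scaled. It was 0.394, 0.413 and 0.412 in WT and 0.883, 0.871 and 0.884 in KD, a 2.16-fold difference between the groups. The exact two-sided permutation test gave p = 0.1, the smallest value that 3 against 3 libraries allow.

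Of 20 partners and regulators of NRF2 listed, 19 were in the table and 18 were tested. At an adjusted p under 0.05, 9 were higher (against 36.7% of all genes tested), 7 were lower (against 36.7%) and 2 did not pass, with a median log2 fold change of 0.057 against −0.0061 over all genes. Only Mafk and Trim21 of these 18 changed more than 2-fold, and both were higher (against 10.2% of all genes). Mafk, a small MAF protein that pairs with NRF2 on DNA, stood at 40.2, 36.4 and 37.2 CPM in WT and 77.5, 72.2 and 81.4 in KD. That is a 2.03-fold rise (log2 1.02, SE 0.057, adjusted p = 1.28e-17), which stood just past the 2-fold threshold and fell just under it with upper quartile scaling (0.98), without WT replicate 2 (0.99) and without KD replicate 3 (0.99). The other small MAF genes split. Mafg rose 1.30-fold (206, 199 and 195 CPM to 270, 247 and 263, adjusted p = 6.92e-11). Maff fell by 25.3% (140, 130 and 137 CPM to 107, 92.0 and 105, adjusted p = 1.30e-09). Bach1, the competing repressor, fell by 13.1%, from 53.2, 48.6 and 50.1 CPM to 45.4, 44.0 and 42.7 (adjusted p = 0.0021). Its relative Bach2 was at 2.70 ± 0.680 and 1.96 ± 0.480 CPM and did not pass the test (log2 −0.46, 95% interval −1.01 to 0.085, adjusted p = 0.121).

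Sqstm1 encodes p62, which binds KEAP1 and carries it to autophagy, and it rose 1.52-fold, from 1332 ± 22.9 to 2028 ± 34.5 CPM (adjusted p = 7.86e-20). Trim21, a ubiquitin ligase that acts on p62, rose 2.24-fold, from 15.8, 15.1 and 16.4 CPM to 36.8, 36.9 and 32.1 (log2 1.16, SE 0.078, adjusted p = 2.08e-15). Cul3 and Rbx1, the scaffold and RING subunits of the ligase that takes NRF2 from KEAP1, rose slightly, 1.10-fold and 1.10-fold (adjusted p = 7.88e-04 and 0.00761). Pgam5, a mitochondrial phosphatase that binds KEAP1, rose 1.61-fold, from 60.4 ± 2.67 to 97.5 ± 0.720 CPM. Btrc, the substrate receptor of the KEAP1-independent route of NRF2 turnover, fell by 47.7%, from 23.7 ± 1.06 to 12.4 ± 1.30 CPM (adjusted p = 2.85e-11). The kinase of that route, Gsk3b, rose 1.23-fold, and the related receptor Fbxw11 rose 1.10-fold. Syvn1, a further ubiquitin ligase for NRF2, fell by 25.1%. Of the other genes on the list whose proteins bind KEAP1, Amer1 fell by 41.6%, Palb2 by 23.0% and Dpp3 by 14.2%, against the rises of Sqstm1 and Pgam5. The related factor Nfe2l1 was at 452 ± 17.4 and 446 ± 5.995 CPM and did not pass the test (log2 −0.019, 95% interval −0.087 to 0.049, adjusted p = 0.615). Nfe2 had 0 to 3 counts in each library and was not tested.

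**Figure D2:**
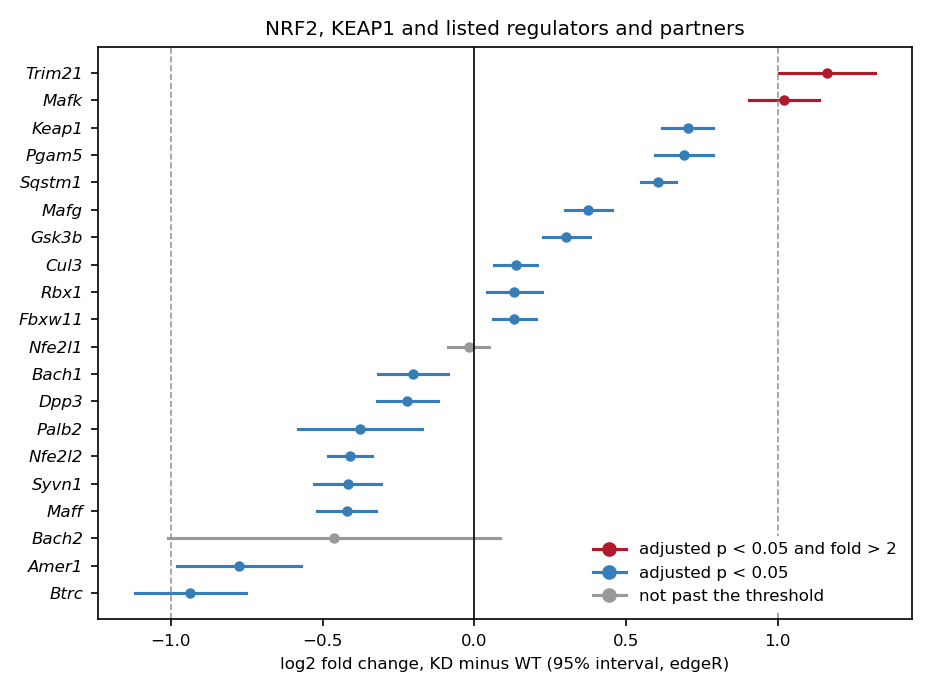
Log2 fold change (KD over WT) of Nfe2l2, Keap1 and the 18 tested regulators and partners of NRF2, with 95% intervals from edgeR and dashed lines at a 2-fold change. Points in red changed more than 2-fold at an adjusted p under 0.05, points in blue passed the adjusted p alone and points in grey did not. Mafk (1.02) and Trim21 (1.16) are the red points, and Btrc (−0.94) is the lowest.

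Slc7a11 changed most of the 9 genes. It encodes xCT, the light chain of the cystine-glutamate exchanger that brings in cystine, the source of cysteine for glutathione. It stood at 138, 127 and 119 CPM in WT and at 615, 626 and 634 in KD, with raw counts of 5214, 4794 and 4494 against 23797, 22966 and 24074. The groups were far apart and the SD was 9.78 CPM in WT and 9.33 in KD. The 4.88-fold rise (log2 2.29, SE 0.040, adjusted p = 4.23e-32) was the highest of the 9. Slc3a2, the heavy chain that holds xCT at the membrane, rose 2.20-fold, from 160 ± 3.50 to 352 ± 10.4 CPM (log2 1.14, adjusted p = 1.05e-24). The glutamine importer Slc1a5 rose 2.17-fold, from 68.1 ± 0.727 to 148 ± 1.97 CPM. Cth, which makes cysteine from cystathionine, rose 3.12-fold, from 12.4 ± 2.60 to 38.7 ± 2.80 CPM (log2 1.64, adjusted p = 7.09e-17).

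Gclm and Gclc encode the modifier and catalytic subunits of glutamate-cysteine ligase, the rate-limiting enzyme of glutathione synthesis. Gclm stood at 87.1, 89.2 and 86.2 CPM in WT and at 252, 251 and 250 in KD, with means of 87.5 ± 1.54 and 251 ± 0.953. It rose 2.86-fold (log2 1.52, SE 0.038, adjusted p = 1.04e-27). Gclc stood at 112, 105 and 103 CPM in WT and at 140, 133 and 138 in KD, with means of 107 ± 4.50 and 137 ± 3.85. Both subunits were higher in every KD library, but Gclc rose only 1.28-fold (log2 0.36, SE 0.042, adjusted p = 2.49e-09). The ratio of Gclm counts to Gclc counts in the same library was 0.780, 0.846 and 0.838 in WT and 1.80, 1.89 and 1.80 in KD. The ratio was 2.23-fold higher in KD, with the smallest p that an exact two-sided permutation test of 3 against 3 can give (p = 0.1). The ratio is of counts and not of molecules, since transcript lengths were not used.

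Gsr encodes glutathione reductase, which returns oxidized glutathione to its reduced form with NADPH. It stood at 79.4, 79.3 and 85.0 CPM in WT and at 162, 155 and 166 in KD. All KD libraries were above all WT libraries, with means of 81.2 ± 3.24 and 161 ± 5.67 and a 1.98-fold rise (log2 0.99, SE 0.043, adjusted p = 1.48e-20). This lay just under the 2-fold threshold, and just over it without WT replicate 3 (1.02) or KD replicate 2 (1.02).

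Around these members, a list of 13 other genes of glutathione synthesis, turnover and cysteine supply had 12 tested. Of the 12, 8 were higher (against 36.7% of all genes), 3 were lower (against 36.7%) and 1 did not pass, with 4 called higher (against 10.2%) and a median log2 fold change of 0.57. By edgeR 0 were called lower with the fold threshold (against 9.98% of all genes), by DESeq2 also 0, and 3 were lower at an unadjusted p under 0.05 without it. The called genes were Slc3a2, Slc1a5, Cth and Ggt1. Ggt1, which cleaves glutathione outside the cell, had 1, 0 and 1 counts in WT and 24, 18 and 27 in KD. Gss, the enzyme of the final step of glutathione synthesis, rose 1.62-fold, from 19.6 ± 1.80 to 31.9 ± 2.04 CPM (adjusted p = 9.27e-10). Genes that spend or degrade glutathione did not share a direction. The intracellular degrader Chac1 rose 1.54-fold and glutaredoxin, Glrx, rose 1.44-fold. The glutathione peroxidases were lower: Gpx1 fell by 34.98% (725 ± 4.78 to 471 ± 15.2 CPM, adjusted p = 1.29e-18) and Gpx4, which repairs lipid peroxides, fell by 20.8% (283 ± 3.70 to 224 ± 3.85 CPM, adjusted p = 9.68e-11). Chac2, the other intracellular degrader on the list, fell by 20.8%. Ggct did not pass (adjusted p = 0.946).

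**Figure D3:**
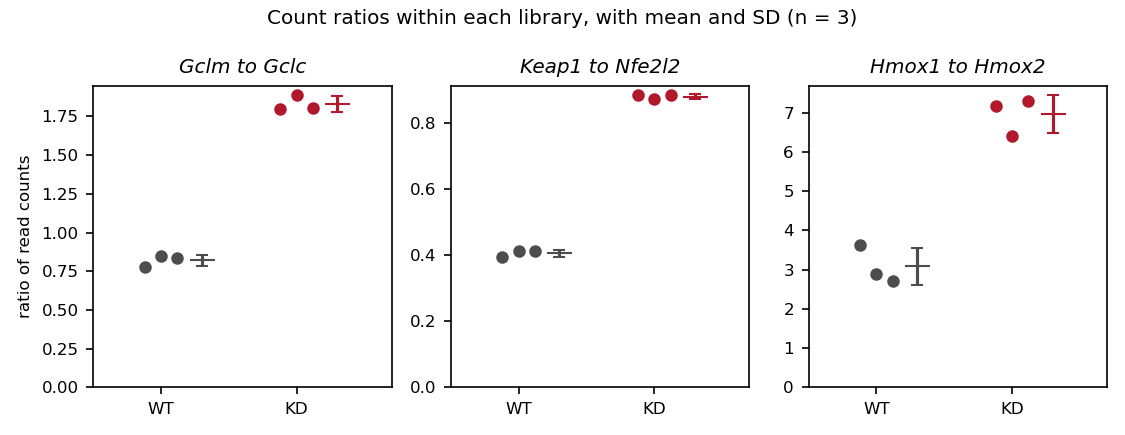
Ratio of the counts of 2 genes within each library for Gclm to Gclc, Keap1 to Nfe2l2 and Hmox1 to Hmox2, in 3 panels with a point per library and the mean with its SD beside them. In all 3 panels the KD libraries lie above the WT libraries, by 2.23-fold, 2.16-fold and 2.27-fold.

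Srxn1 encodes sulfiredoxin, which repairs peroxiredoxins that were oxidized too far. It stood at 195, 176 and 179 CPM in WT and at 528, 524 and 525 in KD. The KD libraries were nearly level with each other, with a mean of 526 ± 1.90 CPM against 183 ± 10.01 in WT. The rise was 2.87-fold (log2 1.52, SE 0.036, adjusted p = 3.04e-28), and its 95% interval of 1.45 to 1.59 overlaps that of Gclm, 1.44 to 1.60. Of the 4 other thioredoxin and peroxidase genes tested, 3 were higher (against 36.7% of all genes) and 1 was lower (against 36.7%). Txnrd1, thioredoxin reductase, rose 1.74-fold, from 460 ± 3.42 to 798 ± 13.1 CPM (adjusted p = 3.71e-22). The peroxiredoxins Prdx1 and Prdx6 rose 1.28-fold and 1.44-fold. Thioredoxin itself, Txn1, fell by 19.2%, from 410 ± 13.2 to 331 ± 11.9 CPM. The reductase and its substrate therefore moved in opposite directions in the same libraries.

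Hmox1 encodes heme oxygenase 1, which splits heme into biliverdin, iron and carbon monoxide. It stood at 163, 138 and 140 CPM in WT and at 285, 269 and 285 in KD. WT replicate 1 was the highest of its group, and all KD values were above it. The mean went from 147 ± 14.0 to 279 ± 9.35 CPM, a 1.90-fold rise (log2 0.93, SE 0.045, adjusted p = 3.87e-19). Without WT replicate 1 the log2 fold change was 1.01, just past the 2-fold threshold. Its constitutive relative Hmox2 fell by 16.2%, from 48.0 ± 3.26 to 40.2 ± 1.53 CPM (adjusted p = 3.58e-04). The ratio of Hmox1 to Hmox2 counts was 3.62, 2.901 and 2.72 in WT and 7.17, 6.40 and 7.29 in KD (exact two-sided permutation p = 0.1, the smallest possible). Of 7 further heme and iron genes tested, 3 were higher (against 36.7% of all genes), 1 was lower (against 36.7%) and 3 did not pass. Fth1, the ferritin heavy chain that stores iron, rose 1.75-fold, from 3838 ± 110 to 6723 ± 179 CPM, while the ferritin light chain gene Ftl1 did not pass (log2 0.023, 95% interval −0.032 to 0.079, adjusted p = 0.448). The heme transporter Slc48a1 rose 1.65-fold. Of the biliverdin reductases, Blvrb rose 2.05-fold, from 22.3 ± 1.29 to 45.7 ± 0.900 CPM (adjusted p = 7.20e-16), and Blvra fell by 44.7%, from 44.7 ± 1.26 to 24.7 ± 1.28 CPM (adjusted p = 7.86e-14).

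Nqo1, a quinone reductase often read as a reporter of NRF2 activity, was the 1 gene of the 9 that did not pass the test. It stood at 52.5, 58.9 and 55.1 CPM in WT and at 53.0, 56.0 and 54.3 in KD. The KD values lay within the range of the WT values. The log2 fold change was −0.028 (SE 0.055, adjusted p = 0.652) with a 95% interval from −0.14 to 0.083, so a change as large as that of Gclc (0.36) lay outside the interval. Counts of 1979 to 2224 per library stood behind these values. Its relative Nqo2 was lower in KD by more than any of the 9 genes. It stood at 168, 168 and 168 CPM in WT and at 45.3, 47.1 and 48.6 in KD, 72.0% lower (log2 −1.84, SE 0.044, adjusted p = 3.46e-28).

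NADPH pays for most of the reductions above, and 5 further NRF2 targets that supply it or belong to the pentose phosphate pathway were tested, of which 3 were higher (against 36.7% of all genes) and 2 were lower (against 36.7%). Pgd, an enzyme of that pathway that makes NADPH, rose 1.30-fold, from 311 ± 7.58 to 406 ± 4.87 CPM (adjusted p = 1.70e-12). Taldo1 and Tkt, which rearrange its sugars, rose 1.58-fold and 1.16-fold. The NADPH sources outside the pathway were lower, with malic enzyme Me1 down by 32.3% (172 ± 4.05 to 117 ± 1.81 CPM) and Idh1 down by 12.9%.

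**Figure D4:**
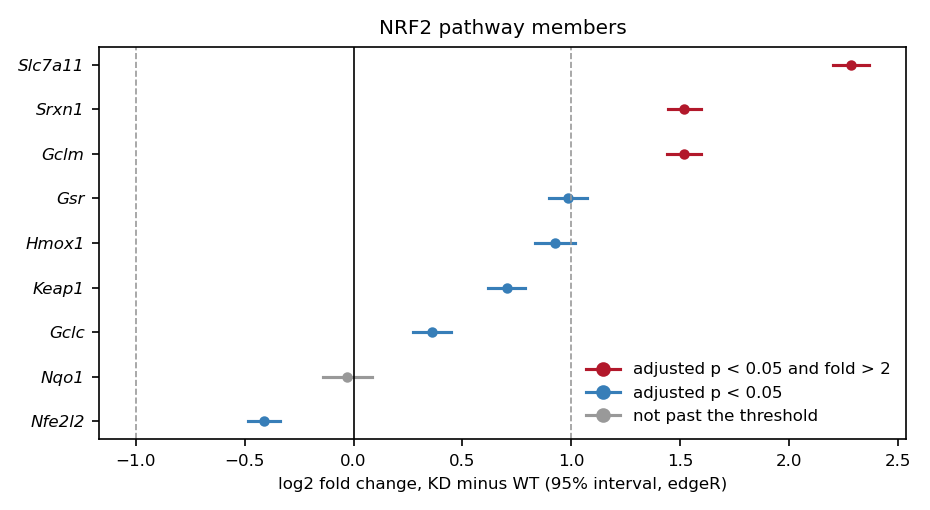
Log2 fold change (KD over WT) of the 9 NRF2 pathway genes with 95% intervals from edgeR and dashed lines at a 2-fold change. Red points changed more than 2-fold at an adjusted p under 0.05, blue points passed the adjusted p alone and the grey point did not. Slc7a11 (2.29), Srxn1 (1.52) and Gclm (1.52) are red, Nfe2l2 (−0.41) lies below 0, and Nqo1 (−0.028) is grey.

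Further NRF2 targets, 45 genes chosen by name with earlier results of these data known, had 40 tested. Of the 40, 21 were higher (against 36.7% of all genes), 12 were lower (against 36.7%) and 7 did not pass, with a median log2 fold change of 0.22. Changes of more than 2-fold were called for 7 higher (against 10.2% of all genes) and 1 lower (against 9.98%). The groups of thioredoxin, NADPH and heme genes within this list are those given above. The 19 conjugation and detoxification genes tested had 8 higher (against 36.7% of all genes), 8 lower (against 36.7%) and 3 not past the threshold. Osgin1, an inhibitor of growth induced by oxidative stress, stood at 10.6, 9.85 and 12.3 CPM in WT and at 45.1, 44.7 and 48.0 in KD. It rose 4.20-fold (log2 2.07, SE 0.080, adjusted p = 3.45e-22). The glutathione transferase Gsta4 rose 2.02-fold, from 28.8 ± 0.256 to 58.1 ± 1.79 CPM. Gsta1 rose 2.60-fold from uneven WT counts of 123, 39 and 110. Its log2 fold change was 1.02 without WT replicate 2 and 1.66 without WT replicate 1. Gsta2 rose 5.04-fold from low counts (15, 8 and 16 in WT). As close copies Gsta1 and Gsta2 can share reads, so how counts divide between them is uncertain. Other conjugation genes were lower. Ugdh, which makes UDP-glucuronate for glucuronidation, stood at 364, 364 and 362 CPM in WT and at 142, 146 and 145 in KD, 60.3% lower (log2 −1.33, SE 0.035, adjusted p = 3.35e-27). The transferases Mgst1, Mgst2 and Gstm2 fell by 42.8%, 46.9% and 36.0%. The aldo-keto reductases Akr1b10 and Akr1b8 fell by 47.8% and 30.9%, and the carbonyl reductase Cbr1 fell by 30.9%.

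The 5 export pumps tested had a median log2 fold change of 0.90, and 4 were higher (against 36.7% of all genes) and 1 did not pass. Abcg2, a drug exporter, had 15, 18 and 5 counts in WT and 143, 153 and 140 in KD. It rose 11.4-fold (log2 3.51, SE 0.35, adjusted p = 4.60e-11) from 0.336 ± 0.181 to 3.85 ± 0.275 CPM, a low level in both groups. Abcc4 rose 2.04-fold, from 55.0 ± 1.33 to 112 ± 4.99 CPM (adjusted p = 8.58e-20). Abcc3 rose 1.86-fold and Abcc1, from 276 ± 12.1 to 414 ± 5.27 CPM, rose by a log2 fold change of 0.58. Abcc5 was at 43.3 ± 3.90 and 42.6 ± 1.04 CPM and did not pass (adjusted p = 0.746). With upper quartile scaling Abcc4, Blvrb and Gsta4 fell to log2 fold changes of 0.98, 0.99 and 0.97, so that 4 of the 40 further targets were called higher in place of 7. That scaling called 1305 of all 13497 genes tested higher, so the share of the further targets was then near that of all genes.

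**Figure D5:**
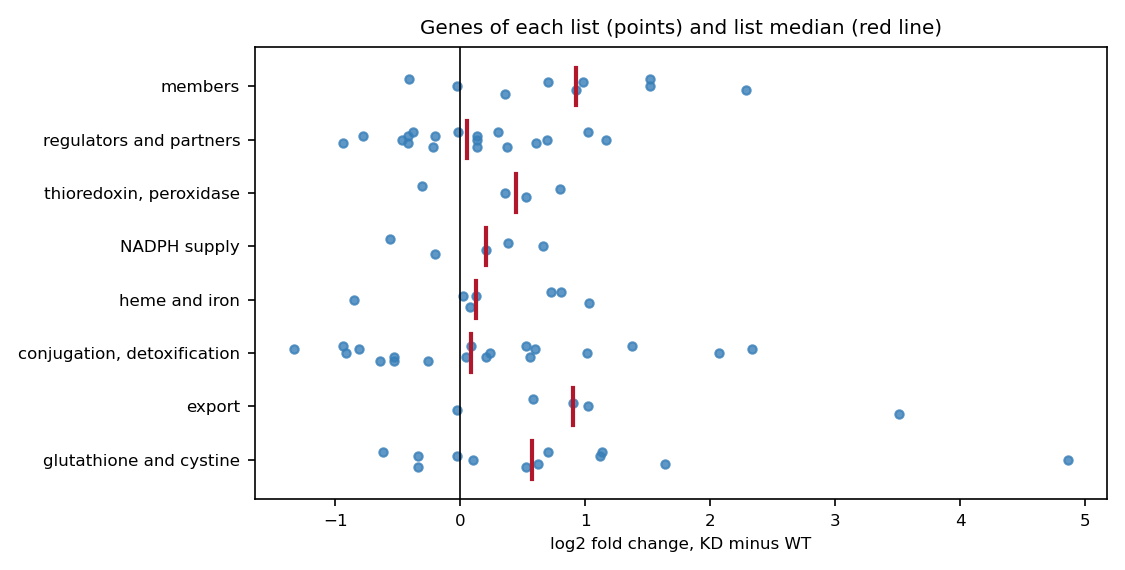
Log2 fold changes (KD over WT) of the tested genes of each list, with a point per gene, a red line at the list's median and a black line at the median of all genes tested (−0.0061). The medians run from 0.057 for the regulators to 0.90 for the export pumps and 0.93 for the 9 NRF2 pathway genes (members), and each list drawn holds points on both sides of 0, and the point farthest right is Ggt1, whose fitted value rests on 0 or 1 counts in WT.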

How the data were processed

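RNA-seq was made from 3 KD and 3 WT libraries. The authors deposited raw gene counts in 1 table. Per the labels, RNA was extracted with TRIzol and libraries were made with a SMARTER kit, whereas the methods of the study name other kits. The methods name HISAT2 and hg19, and the submitters' processing notes name HISAT2, featureCounts, DESeq2 and hg38. The annotation and strand setting are not given in the sources used here, so overlapping and antisense genes cannot be separated. All 6 value columns were used (0 left out), 0 gene names were blank and 583 genes had no count.

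Counts were filtered with filterByExpr (at least 10 counts, 15 in total), scaled by TMM (factors 0.990 to 1.01) and tested with edgeR 4.0.16 in R 4.3.3 by the quasi-likelihood test, KD against WT. Benjamini-Hochberg adjustment ran over all 13497 genes. Called genes had an adjusted p under 0.05 and a fold change over 2. CPM are TMM-scaled, ± is the SD, and intervals are 95%. The biological coefficient of variation was 5.21%. Count ratios within a library were compared by exact permutation (20 splits). DESeq2 1.42.0 was an alternative. The same replicate numbers did not pair KD and WT libraries. 1 further gene of the pathway is not reported here. The 9 genes and all lists were chosen with earlier results of these data known. The rule for named genes took the 9 genes, of each pathway list the called genes with the 4 largest changes each way, the regulators Bach1, Mafg, Maff, Mafk, Sqstm1 and Cul3, and the relatives Hmox2 and Nqo2. Every other gene of the lists named in the text, and the single markers, were chosen after their values were seen. Promoters are from RefSeq (GRCh38.p14).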

Additional observations from a re-analysis of the deposited data

How the results depend on the processing

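Without a fold threshold, 4960 genes were lower (36.7% of all genes tested) and 4952 higher (36.7%). By that rule 1 of the 9 genes was lower and 7 higher, as were 7 and 9 of the 18 regulators tested. Of the 40 further targets tested 12 were lower and 21 higher. The 12 glutathione and cystine genes had 3 lower and 8 higher, and the 16 genes of Atf4 and its targets had 2 and 12. With upper quartile scaling, 1 of the 18 regulators and 4 of the 40 further targets were called higher, among 1305 of all genes tested. With at least 10 counts required in every library, 903 genes in all were called higher. Leaving out each library in turn gave 1 to 2 regulators called higher, 1 to 2 further targets called lower and 3 to 4 of the 9 genes called higher. The same fits called 1405 to 1488 of all genes higher and 1257 to 1392 lower. The 41 genes followed were the 9 genes, the called genes of the lists other than markers, and some others named in the text. All but Nqo1 passed the adjusted p in the main fit, so this check had little room to fail. Gsta2, Abcg2 and Ggt1 were not tested with at least 10 counts required in every library. All 530 values under the alternatives kept their side of the adjusted p, and those past it kept their direction. The value of Nqo1, never past it, ran from −0.069 to 0.018. The other scalings shifted the median of all genes by −0.041 to 0.0068. Same-numbered libraries had correlations of −0.021 to 0.042, and 2 of 6 libraries were closest to their own number. With the replicate block, 1316 genes were called lower and 1360 higher, and 3 of the 9 genes higher and 0 lower. The table limits what can be said for Nfe2 and other genes with few counts. Its rows carry mouse gene names although the labels name a human line, and the organism of the reads was not tested.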

Other observations

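The NRF2 target Slc7a11, and Slc3a2 and Cth of the glutathione and cystine list, are known targets of ATF4. That factor drives the amino acid response to nutrient and protein-folding stress. Atf4 itself was higher in the KD libraries, at 656 ± 4.23 CPM against 347 ± 14.98 in WT (SD, n = 3), a 1.89-fold rise (log2 0.92, adjusted p = 8.43e-23 in edgeR's quasi-likelihood test). A list of 17 genes, Atf4 itself and its known targets, had 16 tested, of which 12 were higher (against 36.7% of all genes tested), 2 were lower (against 36.7%) and 2 did not pass. Of these, 5 were called higher (against 10.2%) and 1 lower (against 9.98%), with a median log2 fold change of 0.75 against −0.0061 over all genes. Atf3, a stress-induced factor, rose 2.37-fold, from 23.9 ± 0.505 to 56.5 ± 1.73 CPM. Slc7a5, which imports large neutral amino acids, rose 2.28-fold, from 141 ± 9.08 to 321 ± 10.5 CPM. Asns, asparagine synthetase, rose 2.07-fold, from 156 ± 9.45 to 322 ± 6.70 CPM. The other called genes were Slc3a2 and Cth, whose values are given above. Trib3 rose 1.94-fold and Mthfd2 1.83-fold, just under the threshold. The stress gene Ddit4, an inhibitor of mTOR signalling, fell by 63.0% (log2 −1.44, adjusted p = 1.86e-24). Ddit3, which encodes CHOP, was lower by a log2 fold change of 0.17 (adjusted p = 0.0311). The share of the rise of Slc7a11 that goes with either factor was not tested.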
